A study of Saccharomyces cerevisiae with 8 samples.

Results

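The spliceosomal snRNAs U1, U2, U4, U5 and U6 were read in budding yeast in which the helicase gene PRP43 stands behind a GAL promoter. They were taken by reference name and are 5 of the 15 reference RNAs named in the deposited tables of the series, with 2227 nucleotides together. The 4 libraries used were PRP43_Glu replicates A and B and PRP43_Gal replicates A and B, made from whole cell RNA of the pGAL_PRP43 strain. Glu and Gal stand for growth in glucose, which shuts the promoter off, and in galactose, which keeps it on, as far as the labels and their media give it, and the time in glucose is not given in the sources used here. Carbon source and promoter state changed together, and no values of these RNAs in a strain with PRP43 behind its own promoter were analysed here, so the effects of medium and of PRP43 repression cannot be told apart. The other 4 of the 8 libraries, from a Dbp3 deletion and a wild type, come in tables without snRNA rows and were not used here. The series design states biological duplicates.

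RiboMeth-seq breaks RNA by partial alkaline hydrolysis and records where the fragments begin and end, here fragments of 20 to 40 nt, so that every accessible nucleotide of an RNA collects read ends. A 2′-O-methyl group protects the adjacent bond and leaves few ends. Levels are given as ends per 1000000 read ends on 18S and 25S rRNA of the same library, written EPM. These levels are relative to rRNA, so more snRNA and less rRNA in the cells cannot be told apart.

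In the spliceosome, U1 pairs with the 5′ splice site and U2 with the branch site of the intron. U6 arrives paired with U4, which holds it inactive, together with U5, whose loop touches the exons. U1 and U4 leave before catalysis, while U2, U5 and U6 form the active centre and stay with the excised intron lariat. Prp43 is the DEAH-box helicase that takes this last complex apart, and it also acts on pre-ribosomes.

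The stretches on which the results turn are shown as the deposited references give them, 5′ to 3′ and numbered from the 5′ end of each RNA. Capitals mark the letters that pair with the 5′ splice site in U1 (nt 3 to 10), the branch site in U2 (nt 34 to 39), the exon-contacting loop in U5 (nt 94 to 102), a stretch of U4 bounded by large stacks of ends in 1 library (nt 97 to 135) and the 3′ tail of U6 (nt 101 to 112). The 2 stretches from the middle of U2 carry no capitals and are the runs of 2 or more adjacent 20 nt windows in which the ratio of PRP43_Glu to PRP43_Gal was over 5, a rule chosen after the values were seen.
U1 nt 1 to 40: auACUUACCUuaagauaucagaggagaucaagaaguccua
U2 nt 1 to 124: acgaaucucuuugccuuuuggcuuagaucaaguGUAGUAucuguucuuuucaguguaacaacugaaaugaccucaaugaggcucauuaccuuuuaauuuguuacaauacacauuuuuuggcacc
U2 nt 461 to 500: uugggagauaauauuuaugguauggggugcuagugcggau
U2 nt 841 to 940: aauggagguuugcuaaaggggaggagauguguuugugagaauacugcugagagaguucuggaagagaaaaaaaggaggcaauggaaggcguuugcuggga
U4 nt 1 to 160: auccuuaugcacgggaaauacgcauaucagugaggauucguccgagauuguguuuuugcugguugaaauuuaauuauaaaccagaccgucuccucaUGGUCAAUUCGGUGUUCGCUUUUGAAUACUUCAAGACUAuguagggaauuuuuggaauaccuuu
U5 nt 61 to 120: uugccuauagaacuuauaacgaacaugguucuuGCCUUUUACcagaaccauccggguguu
U6 nt 1 to 112: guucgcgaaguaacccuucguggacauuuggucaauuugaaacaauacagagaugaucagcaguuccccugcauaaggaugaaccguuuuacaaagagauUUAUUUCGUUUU

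The deposited references are 569 nt for U1, 1171 nt for U2, 160 nt for U4, 215 nt for U5 and 112 nt for U6. In RefSeq (R64) the matching genes are SNR19 (568 nt), LSR1 (1175 nt), SNR14 (160 nt), SNR7-L (214 nt) and SNR6 (112 nt). The genes were paired by the usual names of these RNAs, and 3 of the 5 lengths differ by a few nucleotides.

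Depth set what could be seen. The rRNA read ends came to 5557319 and 7045005 in PRP43_Glu replicates A and B and 12390972 and 14191112 in PRP43_Gal replicates A and B. The 5 snRNAs together held 8047 and 10989 read ends in PRP43_Glu and 15762 and 12050 in PRP43_Gal, 0.0849% to 0.156% of the rRNA read ends. The median nucleotide of U1 and U2 had 2 to 4 ends per library, and that of U6 had 8 and 9 in PRP43_Glu replicates A and B and 27 and 15 in PRP43_Gal. Of the 11 references in the PRP43 tables, U14 and both U3 copies are listed at 0 in all 4 libraries, which leaves 8 with values.

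U2 read ends were 2.56-fold higher in glucose than in galactose, and U2 was the 1 snRNA of 5 that passed the test of totals. U1 was 1.28-fold higher in glucose with groups that did not overlap, and it did not pass. For U4, U5 and U6 the groups overlapped.

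**Figure D1:**
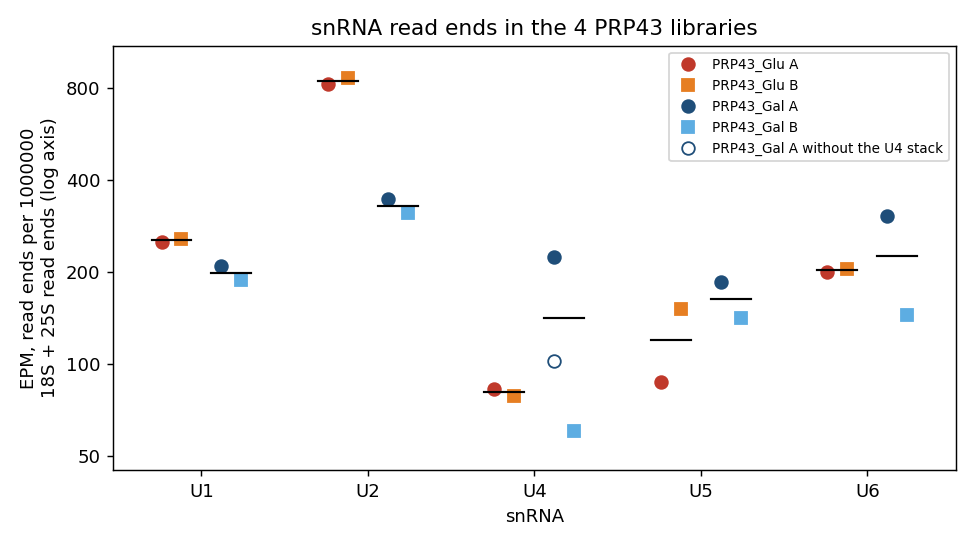
Level of each snRNA in EPM (log axis) in the 4 libraries, with black bars at the group means of 2 libraries and an open circle for PRP43_Gal A without the stack at U4 nucleotides 97 and 135. U2 lies at 827 and 866 in PRP43_Glu, above 348 and 314 in PRP43_Gal, while U4 and U6 are widely spread in PRP43_Gal.

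U2, which recognises the branch site, had 827 and 866 EPM in PRP43_Glu replicates A and B, against 348 and 314 in PRP43_Gal replicates A and B. Both glucose libraries stood far above both galactose libraries, and the duplicates lay close together. The means were 846 ± 27.7 in PRP43_Glu and 331 ± 24 in PRP43_Gal (SD, n = 2 each), a log2 change of 1.36 ± 0.088 (SE; edgeR quasi-likelihood over the 8 references, adjusted p = 0.00602). Of the 8 references 12.5% were called, which is U2 alone. The 18S and 25S rRNAs among the 8 make up the scaling total and so could hardly be called (log2 changes -0.09 and 0.04). An exact permutation test of 2 libraries against 2 cannot go below 0.33, so the call rests on the model. It was lost with scaling to the sum of the 5 snRNAs (log2 change 0.81, edgeR adjusted p = 0.0751). U2 itself held 57.1% and 55.5% of that sum in PRP43_Glu, against 27.3% and 36.9% in PRP43_Gal. A rise of U2 thus raises that scaling total and shrinks its own change. The call was also lost without PRP43_Glu replicate A (log2 change 1.39) and without PRP43_Glu replicate B (log2 change 1.32).

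U1, which recognises the 5′ splice site, had 251 and 258 EPM in PRP43_Glu, against 209 and 188 in PRP43_Gal. The glucose libraries were both higher, by less than for U2. The log2 change was 0.36 ± 0.086 (SE) and did not pass (edgeR adjusted p = 0.112). It passed when levels were scaled to 18S alone (adjusted p = 0.0147), in DESeq2 (adjusted p = 0.00278), without PRP43_Gal replicate A (adjusted p = 0.0167) and without PRP43_Gal replicate B (adjusted p = 0.0388). It did not pass without PRP43_Glu replicate A (log2 change 0.38) or without PRP43_Glu replicate B (log2 change 0.33). Scaled to the sum of the 5 snRNAs the direction turned (log2 change -0.19, edgeR adjusted p = 0.448). U2 held a larger part of that sum in both glucose libraries, which by itself lowers the change of U1.

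The ratio of U2 to U1 read ends within a library does not use the rRNA at all. It was 3.30 and 3.36 in PRP43_Glu, against 1.66 and 1.67 in PRP43_Gal. The mean ratio in PRP43_Glu was 2.00 times that in PRP43_Gal, and the duplicates lay close together in both media. Of all snRNA read ends, U2 held 57.1% and 55.5% in PRP43_Glu, against 27.3% and 36.9% in PRP43_Gal.

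U4, the partner that holds U6 inactive, had 83 and 78.9 EPM in PRP43_Glu, against 224 and 60.3 in PRP43_Gal. Replicate A of PRP43_Gal was far above the other 3 libraries. The log2 change was -0.81 ± 0.77 (SE) and did not pass (edgeR adjusted p = 0.499).

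Most of that excess sat at 2 nucleotides. In PRP43_Gal replicate A, 750 reads began at nt 97 of U4 and 745 ended at nt 135, the stretch of 39 nt in capitals above. The other libraries had 5, 5 and 1 reads beginning at nt 97 and 0, 2 and 8 ending at nt 135, in PRP43_Glu replicates A and B and PRP43_Gal replicate B. Both nucleotides held 54.1% of the U4 read ends of PRP43_Gal replicate A and 1.08% to 1.64% of those of the other 3. The deposited table does not link the 2 ends of a read, and why the stack arose was not tested.

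Without these 2 nucleotides U4 had 82.1 and 77.9 EPM in PRP43_Glu, against 103 and 59.3 in PRP43_Gal, and the log2 change was -0.02 (adjusted p = 0.961). The glucose libraries then lay between the galactose libraries. Without PRP43_Gal replicate A as a whole, the log2 change of U4 was 0.42 (adjusted p = 0.0178), and without PRP43_Gal replicate B it was -1.47 (adjusted p = 0.000836). The direction for U4 thus turned with the galactose library used.

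**Figure D2:**
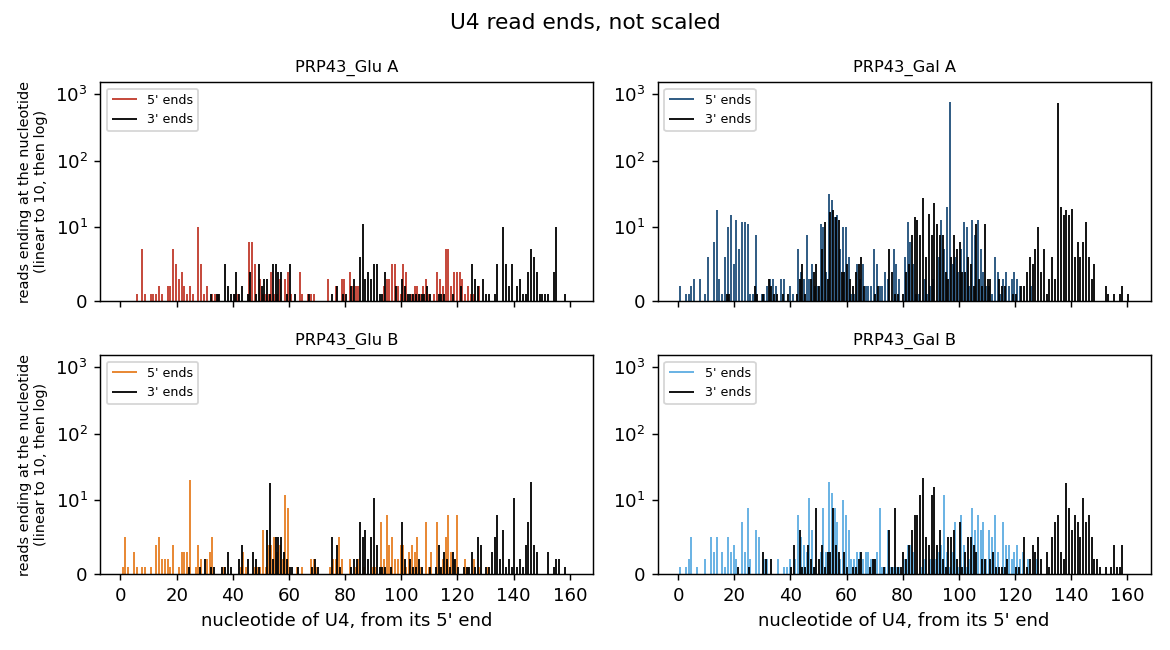
Reads beginning (coloured) and ending (black) at each nucleotide of U4 in the 4 libraries, unscaled, on an axis that is linear to 10 and logarithmic above. PRP43_Gal A has 750 reads beginning at nt 97 and 745 ending at nt 135, and no other library has more than 8 at either.

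U6, the RNA of the catalytic centre, had 200 and 205 EPM in PRP43_Glu, against 306 and 145 in PRP43_Gal. Both glucose libraries lay between the galactose libraries. Its log2 change was -0.15 ± 0.45 (SE) and did not pass (edgeR adjusted p = 0.754). It was 0.48 without PRP43_Gal replicate A (adjusted p = 0.0167) and -0.59 without PRP43_Gal replicate B (adjusted p = 0.00377), so the direction for U6 also turned with the library.

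The ratio of U6 to U4, its pairing partner, was 2.42 and 2.60 in PRP43_Glu, against 1.37 and 2.41 in PRP43_Gal. Without nt 97 and 135 of U4 it was 2.44 and 2.63 in PRP43_Glu, against 2.98 and 2.45 in PRP43_Gal. PRP43_Glu replicate A was then the lowest, almost equal to PRP43_Gal replicate B. PRP43_Gal replicate A was the highest, and the groups overlapped.

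U5 had 87.3 and 152 EPM in PRP43_Glu, against 185 and 142 in PRP43_Gal. Replicate A of PRP43_Glu was the lowest, and replicate B lay between the galactose libraries. The log2 change was -0.45 ± 0.37 (SE) and did not pass (edgeR adjusted p = 0.499). It was -0.10 without PRP43_Glu replicate A and -0.91 without PRP43_Glu replicate B.

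Per nucleotide of its length, U6 had the most read ends of the 5, with a mean of 1.81 EPM per nt in PRP43_Glu and 2.01 in PRP43_Gal. In PRP43_Glu, U2 followed with 0.723, then U5 with 0.557, U4 with 0.506 and U1 with 0.447. In PRP43_Gal, U4 followed with 0.888, a mean that holds the stack of replicate A, then U5 with 0.761, U1 with 0.349 and U2 with 0.282. U2 thus stood second in glucose and last in galactose. Among neighbours in these orders, the library values of U5 overlapped those of U2, U4 and U1 in PRP43_Glu. In PRP43_Gal those of U4 overlapped those of U6 and U5.

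The 5.8S rRNA, which was not used for scaling, had 71106 and 78711 EPM in PRP43_Glu, against 158662 and 102222 in PRP43_Gal. It was lower in both glucose libraries and did not pass (log2 change -0.80, edgeR adjusted p = 0.178). The change of scaling total from 18S plus 25S to 5.8S is worth 0.77 on the log2 scale, as a mean over libraries. Scaled to 5.8S, U4, U5 and U6 had positive log2 changes, of 0.12, 0.31 and 0.70, and none of the 3 passed.

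Along U2, glucose libraries were higher almost everywhere, and the difference was widest in the middle of the RNA. Yeast U2 is far longer than the U2 of animals, and its conserved 5′ part carries the branch site pairing letters and the first match to Sm-type letters (AUUUUUUG at nt 112 to 119), the kind of site on which the Sm ring assembles. U2 was split after that match and before its last 6 windows of 20 nt, boundaries chosen after the profile was seen.

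The 5′ part, nt 1 to 119, had 136 and 176 EPM in PRP43_Glu, against 97.3 and 72.7 in PRP43_Gal, a ratio of the means of 1.84. The middle, nt 120 to 1060, had 580 and 553 in PRP43_Glu, against 176 and 183 in PRP43_Gal, a ratio of 3.16. The 3′ part, nt 1061 to 1171, had 110 and 137 in PRP43_Glu, against 74.2 and 57.8 in PRP43_Gal, a ratio of 1.87. In all 3 parts both glucose libraries were above both galactose libraries.

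The middle held 70.2% and 63.9% of the U2 read ends in PRP43_Glu, against 50.7% and 58.4% in PRP43_Gal. Middle over 5′ part was 4.26 and 3.14 in PRP43_Glu, against 1.81 and 2.52 in PRP43_Gal. The groups did not overlap, but duplicates of either medium differed by a large part of the distance between the media. Set against U1 of the same library, the middle gave 2.32 and 2.14 in PRP43_Glu, against 0.840 and 0.973 in PRP43_Gal. The 5′ part gave 0.544 and 0.683 in PRP43_Glu, against 0.465 and 0.386 in PRP43_Gal. The 3′ part gave 0.438 and 0.531 in PRP43_Glu, against 0.354 and 0.307 in PRP43_Gal, so both ends were higher relative to U1 in both glucose libraries, by less than the middle. Without nt 120 to 1060, U2 had a log2 change of 0.89 that did not pass (edgeR adjusted p = 0.133).

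**Figure D3:**
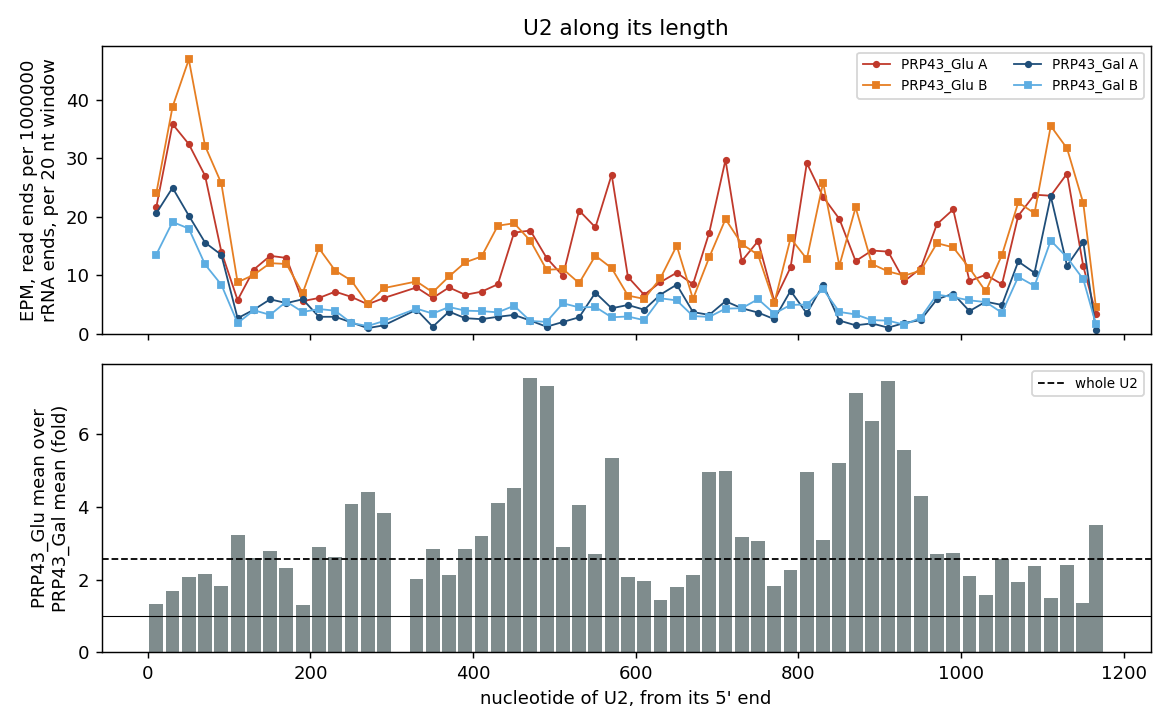
Upper panel, EPM in consecutive 20 nt windows of U2 in the 4 libraries. Lower panel, mean of PRP43_Glu over mean of PRP43_Gal in each window (bars), with the dashed line at the 2.56 of whole U2 and the solid line at equality, and a gap at nt 301 to 320, which had too few ends.

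In windows of 20 nt with a mean of at least 20 read ends, 56 of 58 U2 windows had both glucose libraries above both galactose libraries. Over all 376 windows of the 8 references this held for 36.7%. The exceptions were the window that ends at nt 200 and that at nt 1141 to 1160. The ratio of PRP43_Glu to PRP43_Gal ran from 1.30 to 7.55 with a median of 2.76, and all 17 windows above 4 lay in the middle. The lowest ratio, 1.30 in the window that ends at nt 200, lay there too. The first 6 windows had a median ratio of 1.95, the 46 windows between 2.90 and the last 6 windows 2.16. As a share of the U2 read ends, 17 of these 46 had both glucose libraries above and 6 both below, so the middle was not raised evenly. Of the first 6 and the last 6 windows, 0 were above, and 4 and 3 were below.

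The stretch at nt 461 to 500 had 30.6 and 26.8 EPM in PRP43_Glu, against 3.47 and 4.23 in PRP43_Gal, a ratio of 7.46. The stretch at nt 841 to 940 had 69.3 and 65.7 in PRP43_Glu, against 8.39 and 13.2 in PRP43_Gal, a ratio of 6.26. Both sequences are printed above and hold 37.5% and 39% G, where U2 as a whole has 24.5%. The branch site pairing letters of U2 had 12.6 and 12.2 in PRP43_Glu, against 8.88 and 6.62 in PRP43_Gal, so they too were higher in both glucose libraries.

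For comparison, 18 of 27 windows of U1 had both glucose libraries above both galactose libraries and 2 had both below, against 16.8% below over all windows. The U1 ratio had a median of 1.36 and did not exceed 2.59. Of the windows of U4, U5 and U6, 2 of 8, 1 of 9 and 1 of 6 had both glucose libraries above, against 36.7% over all windows. Both were below in 1 window of U4, 3 of U5 and 0 of U6.

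Whether the distribution along each RNA differed was tested on the share of that RNA's own read ends in each window, which removes the total. With edgeR's quasi-likelihood test, 0 of 376 windows passed at an adjusted p of 0.05 (0% called), among them 108 of the snRNAs. At an unadjusted p under 0.05 there were 25 of the 108 snRNA windows and 13.3% of all windows. DESeq2 called 13 snRNA windows and 11.4% of all windows. The median log2 change of share was 0.10 over the snRNA windows and 0.05 over all. In U2, 17 windows had both glucose shares above and 13 both below, against 23.1% above and 19.1% below over all windows.

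Of the 13 windows that DESeq2 called, 8 were higher and 2 lower in U2, 1 was lower in U1, 1 higher in U4 and 1 higher in U6. The window at nt 461 to 480 of U2 held 2.13% and 1.84% of the U2 ends in PRP43_Glu, against 0.650% and 0.697% in PRP43_Gal, a log2 change of share of 1.55 ± 0.34 (SE; edgeR adjusted p = 0.105, DESeq2 adjusted p = 0.000273). With windows of 40 nt, edgeR's test called 5 of 55 snRNA windows. All 5 were in U2, of which 4 were higher and 1, at nt 1 to 40, was lower. The share called over all references at this width is not given here. Calls of shape thus depended on tool and window width.

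**Figure D4:**
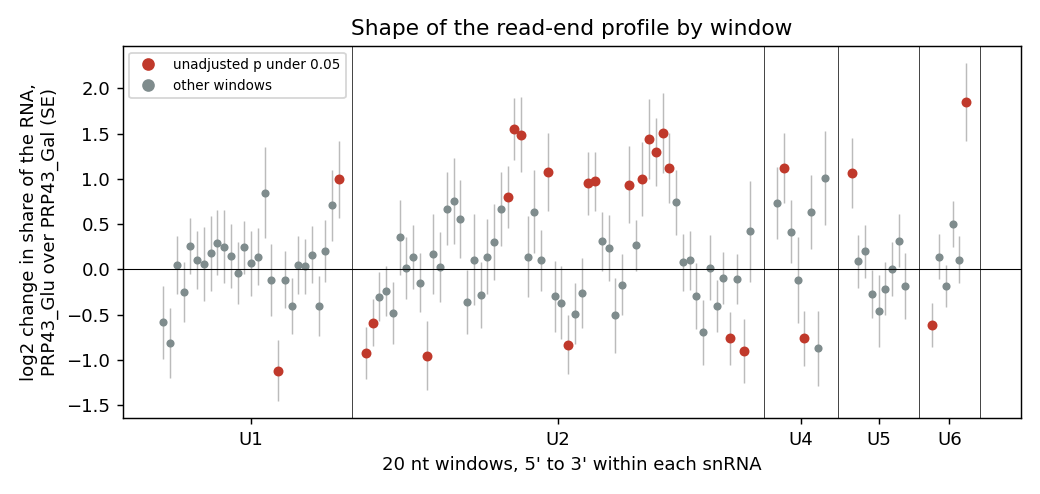
Log2 change in the share of each RNA's own read ends, PRP43_Glu over PRP43_Gal, in 20 nt windows ordered 5′ to 3′ within each snRNA, with SE as bars and windows at an unadjusted p under 0.05 in red. None of the 108 windows passed edgeR's adjusted p, and the highest values are in the middle of U2 and in the last window of U6.

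U6 ends in a run rich in U, which binds the Lsm ring and is where U6 RNAs are trimmed or extended. Its last 12 nt, the capitals in the U6 sequence, collected 66 and 64 read ends in PRP43_Glu, against 35 and 42 in PRP43_Gal, although the galactose libraries were deeper. These were 11.9 and 9.08 EPM in PRP43_Glu, against 2.82 and 2.96 in PRP43_Gal, a ratio of 3.62. Both glucose libraries were far above both galactose libraries.

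As a share of U6, the last 12 nt held 5.92% (95% Wilson interval 4.68 to 7.47) and 4.43% (3.48 to 5.62) in PRP43_Glu, against 0.923% (0.664 to 1.28) and 2.04% (1.51 to 2.74) in PRP43_Gal. The intervals cover counting error only, and those of the 2 media did not overlap. Those of the 2 galactose libraries did not overlap each other either, so duplicates differed by more than counting error. The log2 change of share was 1.85 ± 0.43 (SE; edgeR adjusted p = 0.105, unadjusted p = 0.00112), and it passed in DESeq2 (adjusted p = 0.00125). When the RNAs were cut into windows of 10 nt, the last window of U6 was the same 12 nt. It passed in that fit (edgeR adjusted p = 0.00365), which is not a result at another width. With windows of 40 nt, edgeR called 0 windows of U6. All read ends in the last 12 nt were 3′ ends of reads, since no read of 20 nt or more can begin so close to the end of the RNA.

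The first 20 nt of U6 held 14.3% and 15.7% of its read ends in PRP43_Glu, against 24.7% and 21.3% in PRP43_Gal. Both glucose shares were lower, and the difference did not pass (edgeR adjusted p = 0.291). The ACAGAGA box of U6, which takes over the 5′ splice site from U1, had 20.2 and 15.5 EPM in PRP43_Glu, against 29.1 and 13.9 in PRP43_Gal, with groups that overlapped.

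**Figure D5:**
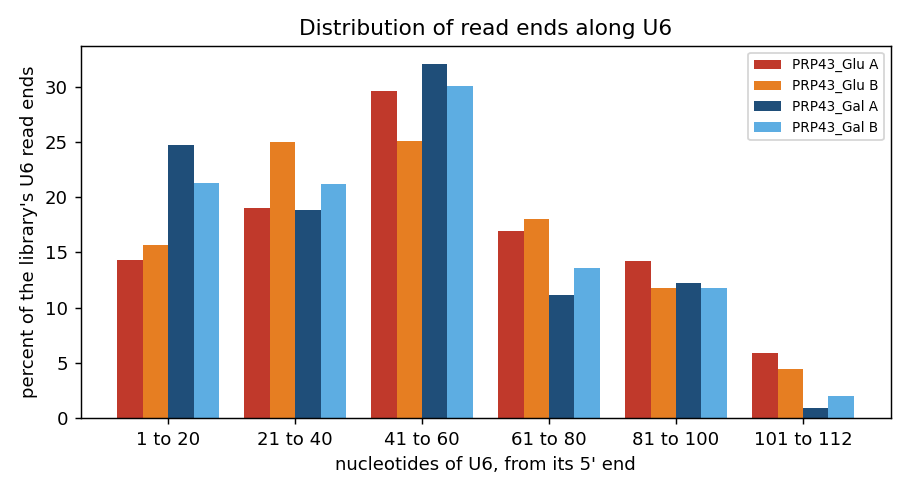
Percent of each library's U6 read ends in consecutive windows of U6, 20 nt wide except the last of 12 nt (1 bar per library). The last window is 5.92% and 4.43% in PRP43_Glu, against 0.923% and 2.04% in PRP43_Gal.

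Yeast U5 comes in a long and a short form that differ at the 3′ end, and the deposited reference is close to the length of the long form. RefSeq gives 214 nt for the long and 179 nt for the short form. Read ends from nt 180 on were 1.24% and 1.87% of U5 in PRP43_Glu, against 1.79% and 1.19% in PRP43_Gal, from 6, 20, 41 and 24 read ends. The groups overlapped, and a difference was not detectable at this depth. The loop of U5 had 2.52 and 6.10 EPM in PRP43_Glu, against 5.49 and 5.07 in PRP43_Gal, and also overlapped.

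Single nucleotides were tested where the mean was at least 10 read ends, which left 237 of 2227 snRNA nucleotides: 81 in U6, 77 in U2, 49 in U5, 15 in U1 and 15 in U4. There were 2 calls, nt 97 and 135 of U4 (log2 changes -5.24 and -7.48, edgeR adjusted p = 0.000235 and 1.0e-05). Both rest on PRP43_Gal replicate A alone and were absent without it. Over all 5591 nucleotides tested, 1.32% were called, 1.13% higher and 0.197% lower in PRP43_Glu. In U2, 47 of 77 nucleotides had both glucose libraries above and 0 both below, where 23.3% and 18.4% of all nucleotides did. In U5, 21 of 49 had both glucose libraries below, and in U6 16 of 81. The median log2 change was 1.01 in U2, -0.72 in U5 and -0.19 in U6, and 0.03 over all nucleotides. The minimum counts unscaled ends and the PRP43_Gal libraries were deeper, so snRNA nucleotides high in galactose passed it more readily. All rRNA nucleotides passed it. The counts and medians of the snRNAs thus lean towards galactose and describe only the nucleotides that passed. With no minimum, edgeR called 23 snRNA nucleotides higher and 2 lower in PRP43_Glu, of 2183 tested. Of these only 237 reach the mean of 10 ends. The share called over all nucleotides in that setting is not given here, so the count has no background beside it.

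Protection from cleavage, the sign of a 2′-O-methyl group, could be tested at 66 snRNA nucleotides, 50 in U6 and 16 in U4, where the neighbours gave a mean of at least 20 expected read ends. All 16 of U4 lie beside the stacks at nt 97 and 135 and reached this minimum through PRP43_Gal replicate A, so they say nothing of protection in U4. Without that library 14 snRNA nucleotides reached it, so most of the 50 in U6 also did so through that library. In PRP43_Glu replicate A the expected ends of the U6 nucleotides tested were at most 18.4, at nt 52. None of the 66 was called by edgeR's quasi-likelihood test, against 0.353% of the 5384 nucleotides tested. At an unadjusted p under 0.05 there were 0 of the 50 in U6, 2 beside the U4 stacks, and 6.95% of all nucleotides tested. DESeq2 called 1 of the 66 and limma 0. No U6 nucleotide tested had a mean protection score above 0.8 in both media, on a scale on which 1 is full protection. For glucose this rests on few expected ends.

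Among the highest in U6, G at nt 10 scored 0.859 and 0.784 in PRP43_Glu, against 0.392 and 0.453 in PRP43_Gal. G at nt 31 scored 0.539 and 0.848 in PRP43_Glu, against 0.668 and 0.595 in PRP43_Gal. Of these, nt 10 separated the groups, with 1 and 2 read ends in PRP43_Glu, and it did not pass (edgeR adjusted p = 0.806). U1, U2 and U5 were too shallow for this test, and so was U4 outside the stacks.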

How the data were processed

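Per the labels' protocols, whole cell RNA was partly hydrolysed with alkali, fragments of 20 to 40 nt were purified, and libraries were sequenced on Ion Proton. Reads were processed with cutadapt 2.0 and Bowtie2 2.3.4.1, per the submitters' processing notes. For mapping settings, reads that match several places and the origin of the references, details were not found; these were not given in the sources used here. The deposited values are counts of read 5′ and 3′ ends per nucleotide, and a methylation score given by the authors as a fraction, recomputed here from the counts over 8651 values with differences of at most 5.0e-10.

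Read ends of both kinds were summed and scaled to 1000000 18S plus 25S read ends (EPM). Totals, nucleotides (mean of at least 10 ends), 20 nt windows (at least 20 ends, with the RNA's total as offset) and protection (at least 20 expected ends and a score difference of at least 0.1) were each tested over all references with edgeR 4.0.16 (quasi-likelihood, Benjamini-Hochberg, 0.05) in R 4.3.3. DESeq2 1.42.0 and limma 3.58.1 were alternatives, beside other scalings, filters, window widths, end types, a replicate block and left-out libraries. An exact permutation test of 2 against 2 cannot go below 0.33. Scripts were tested on simulated data. Text names all 5 snRNAs, called nucleotides and windows, the highest scores, and elements found by their letters. Members and lists were chosen with earlier results of these data known.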

Additional observations from a re-analysis of the deposited data

How the results depend on the processing

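The totals called 1 snRNA of 5, and the count was 2 with scaling to 18S and with DESeq2, 0 with scaling to the sum of the 5 snRNAs, with the replicate block and without the middle of U2, and 0 to 4 when a library was left out. The log2 change of U1 was 0.45 scaled to 18S and 0.36 in DESeq2 (both past the threshold), -0.19 scaled to the sum of the snRNAs, and 0.28 to 0.43 with a library left out. That of U2 was 0.81 scaled to that sum, 1.36 with the replicate block and 0.89 without its middle, none of them past the threshold, and 1.28 to 1.43 with a library left out. Scaled to 5.8S, U4, U5 and U6 turned to 0.12, 0.31 and 0.70. With a library left out, U4 ran from -1.47 to 0.42, U5 from -0.91 to -0.10 and U6 from -0.59 to 0.48. Nucleotide calls (2) became 25 with no minimum, 1 with 5′ ends, 0 with 3′ ends, 0 with the replicate block and 0 to 6 with a library left out. DESeq2 also called 2 nucleotides, both higher in PRP43_Glu, where edgeR called 2 lower. Window calls (0) became 8 with 10 nt, 5 with 40 nt, 2 with 5′ ends, 13 in DESeq2, 1 with the replicate block and 0 to 20 with a library left out. Protection calls (0) became 1 in DESeq2 and stayed at 0 with a library left out. Same-lettered libraries did not deviate together (r = -0.125 over 376 windows, -0.00227 over 108 snRNA windows), so the letters are not taken as pairs. The crossed pairing, chosen after seeing the data like the runs without parts of U2 or U4, called 1 total, 3 nucleotides, 9 windows and 1 protected nucleotide. As a mean over libraries, the change of scaling total to 18S, 25S, 5.8S or the snRNA sum is worth 0.09, -0.04, 0.77 and -0.53 on the log2 scale, and fitted changes of single snRNAs moved by more or less than that. The cause of these differences was not tested. Depth limits the snRNAs to 237 of 2227 nucleotides, and leave-one-out fits assume that the lone library varies like the other group.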

Other observations

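Across the 58 windows of U2, the log2 change of share had a Spearman correlation of 0.454 with the fraction of G and -0.434 with the fraction of C. The correlation with G was 0.135 over 27 windows of U1, 0.267 over 90 of 18S and 0.219 over 170 of 25S. The windows share their libraries, and whether base composition plays a part in the U2 profile was not tested.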
